A study of Homo sapiens with 9 samples.

Results

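ATP1B1, which encodes the β1 subunit of the sodium-potassium pump, gave a higher signal in every array labelled TFPIα or TFPIβ than in every array labelled empty vector. Its mean log2 signal was 1.95 higher in the TFPIα arrays and 1.34 higher in the TFPIβ arrays, which correspond to a 3.88-fold and a 2.53-fold difference. The other 4 genes described with it, ATP1B3, ATP1B2, FXYD3 and FXYD5, differed between groups by at most 0.22 on the log2 scale, and none was called in any comparison. The 5 genes encode subunits or regulators of the same pump, out of 18417 genes measured by a probe set with exactly 1 gene symbol, and each of the 5 has 1 such probe set. The set was selected on measured values, because the signal of ATP1B1 differed from empty vector more consistently than that of any other gene. The values of ATP1B1 are therefore given as a description, with no p-value.

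The sodium-potassium pump is an ATP-driven ion pump of the plasma membrane that exports sodium and imports potassium. A catalytic α subunit carries the ions and splits ATP, and a glycosylated β subunit is needed for the α subunit to fold, leave the endoplasmic reticulum and reach the cell surface. The β1 subunit also takes part in adhesion between epithelial cells. Small single-span membrane proteins of the FXYD family bind the pump and tune its affinity for ions.

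RNA of cells that the labels name SK-BR-3, a human breast cancer line with amplified ERBB2, was hybridised to Affymetrix Human Gene 1.0 ST arrays. The 9 arrays comprise 3 of cells labelled as stably overexpressing TFPIα, 3 of cells labelled as stably overexpressing TFPIβ and 3 of cells carrying the empty vector. TFPI (tissue factor pathway inhibitor) is a protease inhibitor that restrains the start of blood coagulation, and α and β are its splice isoforms. All 3 groups carry the pcDNA3.1/V5/His-pTOPO vector and went through drug selection, named as puromycin in the labels and as neomycin in the methods. By the methods each group is a pool of stable transfectants from which RNA was isolated on 3 independent occasions, so the spread between arrays of a group is that between isolations of 1 pool. Both comparisons with empty vector use the same 3 empty vector arrays.

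The labels were set against marker signals in the arrays. The signal of TFPI itself was 5.66, 5.81 and 5.51 in the TFPIα arrays, 5.55, 5.79 and 5.81 in the TFPIβ arrays and 5.81, 6.48 and 6.45 in the empty vector arrays, so it was not higher in either group labelled as overexpressing it. By the study's account the transfected cDNAs held the coding region alone and the array's TFPI probes recognise the untranslated regions, so this signal does not check the labels. The study reports TFPI as upregulated in both groups when signals were computed with the PLIER algorithm, which drops dim probes. It also summarises earlier measurements by quantitative PCR and by ELISA, in which TFPI mRNA and protein were higher in both groups than in the control. For TFPIβ the rise in protein was seen only after the enzyme PI-PLC had released it from the cells into the medium. ERBB2 stood at 5.88 ± 0.18 (SD, n = 9), whereas the basal keratins KRT5 and KRT14 stood at 12.6 ± 0.16 and 12.4 ± 0.29 (SD, n = 9). Of the simple epithelial keratins, KRT18 was at 10.4 ± 0.43, KRT8 at 5.86 ± 0.15 and KRT19 at 4.88 ± 0.20 (SD, n = 9). KRT18 is given by the brighter of its 2 probe sets. By mean signal ERBB2 stood at percentile 59.0 of the genes measured, and KRT5 and KRT14 at percentiles 99.97 and 99.95. The basal keratins were thus among the brightest genes and ERBB2 was not, although the labels name a line with amplified ERBB2. The reason was not tested. The cells and groups are named by their labels throughout. The median signal of an array lay between 4.78 and 4.88, and arrays of the same group correlated at r = 0.980 to 0.993.

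The stretches of 250 bases before the annotated starts of ATP1B1 and ATP1B3 are shown because both encode β subunits of the pump, and the signal of the former followed the groups while that of the latter varied more with the replicate number. Both come from RefSeq on build GRCh38.p14, at chr1:169106440-169106689 and chr3:141876393-141876642, both on the plus strand and each printed 5′ to 3′. Capitals mark GC boxes (GGGCGG, or CCGCCC on the other strand) and CCAAT boxes (CCAAT, or ATTGG on the other strand).
ATP1B1: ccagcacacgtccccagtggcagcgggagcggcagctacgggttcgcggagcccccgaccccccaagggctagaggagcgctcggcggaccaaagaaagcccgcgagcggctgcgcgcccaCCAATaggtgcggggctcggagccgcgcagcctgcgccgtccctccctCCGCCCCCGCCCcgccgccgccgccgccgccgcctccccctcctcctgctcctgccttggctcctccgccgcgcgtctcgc
ATP1B3: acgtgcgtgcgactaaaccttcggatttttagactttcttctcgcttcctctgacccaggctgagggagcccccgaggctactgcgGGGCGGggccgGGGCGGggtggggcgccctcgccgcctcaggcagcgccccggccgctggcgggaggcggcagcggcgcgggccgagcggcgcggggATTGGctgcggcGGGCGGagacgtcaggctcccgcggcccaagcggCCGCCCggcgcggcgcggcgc
The ATP1B1 stretch held 2 GC boxes, both on the minus strand, and 1 CCAAT box. The ATP1B3 stretch held 4 GC boxes and 1 CCAAT box. Among 35116 stretches of the same length before annotated gene starts, 42.6% held at least 1 GC box and 32.0% at least 1 CCAAT box. The bases G and C made up 77.6% of the ATP1B1 stretch and 77.2% of the ATP1B3 stretch, against a median of 58.0% over all stretches. No TATA box (TATAAA), E-box (CACCTG) or steroid receptor half-site (AGAACA) matched in the stretch of any of the 5 genes on either strand, while 10.7%, 17.5% and 12.4% of all stretches held these motifs. The FXYD3 stretch, chr19:35117750-35117999, precedes a start that lies inside the gene's full span. The matches describe the letters in these windows.

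ATP1B1 lies on chromosome 1 from base 169106690 to base 169132719 on the plus strand of GRCh38.p14. Its log2 signal was 7.36, 7.48 and 7.43 in replicates 1, 2 and 3 of the TFPIα arrays. It was 6.78, 6.81 and 6.82 in the TFPIβ arrays and 5.61, 5.77 and 5.02 in the empty vector arrays. The 3 groups did not overlap, with TFPIα highest, TFPIβ between and empty vector lowest. The means were 7.42 ± 0.06, 6.80 ± 0.03 and 5.47 ± 0.40 (SD, n = 3 each), so the empty vector arrays varied most, and their replicate 3 was the lowest of all. In RNA of bulk cells, more signal per cell and more cells with signal cannot be told apart.

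**Figure D1:**
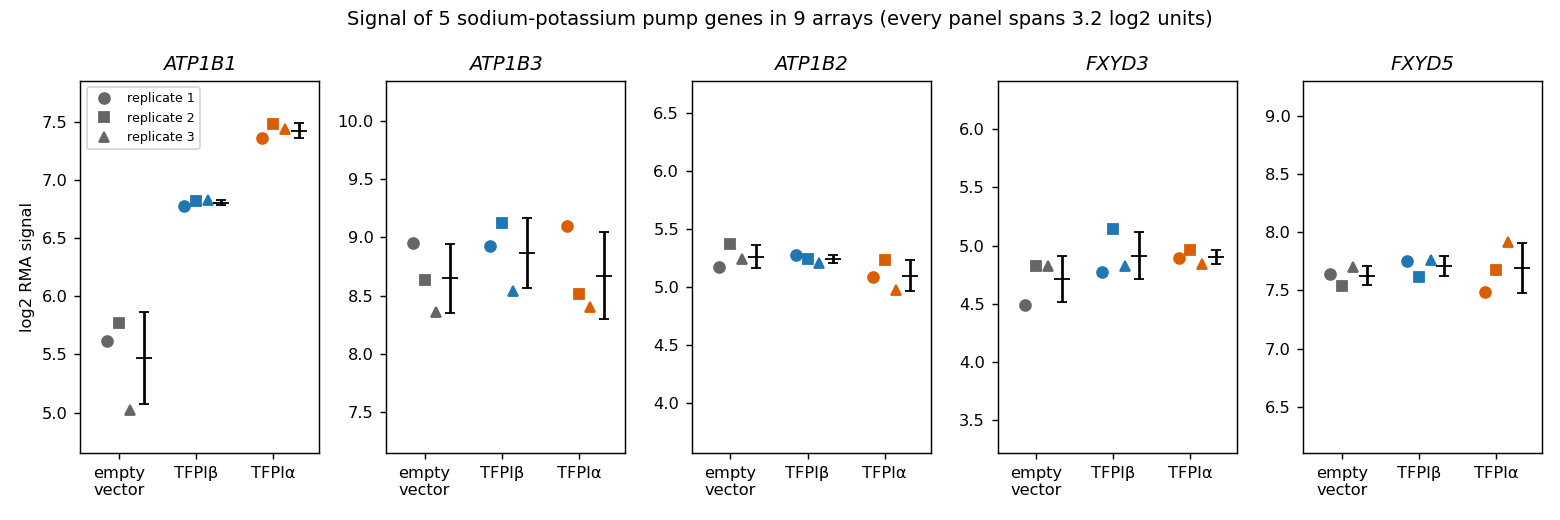
Log2 RMA signal of the 5 pump genes in each array, by labelled group on the horizontal axis. Symbols are single arrays with their replicate number, and black bars are the group mean and SD (n = 3). Every panel spans the same number of log2 units. The groups stand apart for ATP1B1, whose TFPIα arrays lie between 7.36 and 7.48 and whose empty vector arrays lie between 5.02 and 5.77, and the group means lie close together for ATP1B3, ATP1B2, FXYD3 and FXYD5.

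The TFPIα arrays exceeded the empty vector arrays in ATP1B1 signal by 1.95 on the log2 scale (SE 0.17), and the TFPIβ arrays exceeded them by 1.34 (SE 0.17). The TFPIβ arrays lay 0.62 below the TFPIα arrays (log2 fold change -0.62, SE 0.17), a 1.54-fold lower signal. Arrays with the same replicate number differed by 1.74, 1.71 and 2.41 between TFPIα and empty vector and by 1.16, 1.04 and 1.80 between TFPIβ and empty vector. Within replicate numbers the TFPIβ minus TFPIα differences were -0.58, -0.66 and -0.61. Their signs follow from the lack of overlap between the groups, and the differences against empty vector were largest for replicate 3. Without replicate 3 of empty vector the TFPIα and TFPIβ differences were 1.73 and 1.11.

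Ranked by the size of the moderated t statistic of limma over all 17482 probe sets tested, ATP1B1 came first in TFPIα against empty vector (11.23) and first in TFPIβ against empty vector (7.68). The next named genes were NCOA7 (-7.38), SNED1 (-6.95) and GEM (6.72) in the former comparison and UGCG (-7.02), CSF3 (-6.82) and DCN (-6.36) in the latter. In TFPIβ against TFPIα ATP1B1 ranked 119 (-3.55). These ranks are the values that chose the gene.

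A call required both a 2-fold or larger difference and a p under 0.05 after Benjamini-Hochberg adjustment. In TFPIα against empty vector 1 of 17482 probe sets was called, which is 0.00572%, and it was that of ATP1B1. This call rests on the values that chose the gene, so nothing is read from it. With the replicate number as a block, which the arrays' pairing calls for, none was called in that comparison. The standard errors, confidence intervals and p-values printed for single genes come from the fit without this block. The call was also lost when any array other than replicate 3 of empty vector was left out. Without replicate 3 of TFPIα, 4 other probe sets were called, those of S100A9, S100A8, SAA2 and SLC39A8, named here after their values were seen. In TFPIβ against empty vector 0.0% of the probe sets were called by limma and 0 by the one-way model of the methods, while 436 (2.49%) were higher and 390 (2.23%) lower at an unadjusted p under 0.05. In TFPIβ against TFPIα the share called was also 0.0%, by limma and by the one-way model, with 688 (3.94%) higher and 821 (4.7%) lower at that unadjusted threshold. With the replicate block 1 probe set was called in the last comparison, number 7893355, which has no gene symbol. The methods set a false discovery rate of 0.1, whereas the one-way model was run here only at an adjusted p under 0.05. The study reports many more transcripts as differentially expressed against empty vector, in both groups, than were called here. The reason was not tested.

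The spread across groups can be set beside that across replicate numbers. The group means of ATP1B1 spanned 1.95 on the log2 scale, the means of its 3 replicate numbers spanned 0.26, and the pooled SD within groups was 0.23. ATP1B1 was chosen for a group difference that is large against its spread, so this order follows from the choice. For ATP1B3 the order was the other way round. Its group means spanned 0.22 and the means of its replicate numbers spanned 0.56, with a pooled SD of 0.32. The replicate numbers also spanned more than the groups for FXYD3 (0.26 against 0.20) and FXYD5 (0.18 against 0.08), and slightly less for ATP1B2 (0.14 against 0.16).

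ATP1B3 encodes the β3 subunit and lies on chromosome 3 from base 141876643 to base 141926549. Its log2 signal was 9.10, 8.51 and 8.41 in the TFPIα arrays, 8.93, 9.13 and 8.54 in the TFPIβ arrays and 8.95, 8.63 and 8.36 in the empty vector arrays. The groups overlapped in every comparison, and replicate 3 was the lowest array of each group. The TFPIα minus empty vector difference was 0.02 (95% confidence interval -0.52 to 0.56, limma adjusted p = 0.974), and the TFPIβ minus empty vector difference was 0.22 (-0.32 to 0.75, adjusted p = 1.0). The TFPIβ minus TFPIα difference was 0.19 (-0.34 to 0.73, adjusted p = 0.734). Both intervals against empty vector ended below the matching ATP1B1 difference, but that difference chose ATP1B1, so nothing is read from this. Smaller differences in either direction lay within both intervals. The sign of the TFPIα minus empty vector difference depended on single arrays: it was -0.19 without replicate 1 of TFPIα and -0.12 without replicate 3 of empty vector.

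ATP1B2, the gene of the β2 subunit that is best known from glia, lies on chromosome 17 from base 7646627 to base 7657770. Its log2 signal was 5.09, 5.23 and 4.97 in the TFPIα arrays, 5.28, 5.24 and 5.21 in the TFPIβ arrays and 5.17, 5.37 and 5.24 in the empty vector arrays. All groups overlapped, and all 9 arrays lay within 0.39 of each other. The differences were -0.16 for TFPIα minus empty vector (95% confidence interval -0.38 to 0.05, limma adjusted p = 0.431) and -0.02 for TFPIβ minus empty vector (-0.23 to 0.20, adjusted p = 1.0). The TFPIβ minus TFPIα difference was 0.14 (-0.07 to 0.36, adjusted p = 0.565).

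FXYD3 encodes a pump regulator also known as Mat-8, first described in mammary tumours, and lies on chromosome 19 from base 35115823 to base 35124324. Its log2 signal was 4.90, 4.96 and 4.84 in the TFPIα arrays, 4.77, 5.14 and 4.83 in the TFPIβ arrays and 4.49, 4.83 and 4.83 in the empty vector arrays. It passed the filter, a highest log2 signal of at least 5, through replicate 2 of TFPIβ alone. The 3 TFPIα arrays lay above the 3 empty vector arrays, by 0.02 where the groups come closest, and 14.4% of all probe sets tested were higher without overlap in that comparison and 8.85% lower. The difference was 0.19 for TFPIα minus empty vector (95% confidence interval -0.12 to 0.49, limma adjusted p = 0.509), and 0.20 for TFPIβ minus empty vector (-0.10 to 0.50, adjusted p = 1.0). The TFPIβ minus TFPIα difference was 0.01 (-0.29 to 0.32, adjusted p = 0.976). The same value, 4.83, was listed for replicate 3 of TFPIβ and replicates 2 and 3 of empty vector.

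FXYD5, also called dysadherin, is a pump regulator that weakens adhesion between epithelial cells, and its gene lies on chromosome 19 from base 35154735 to base 35169881. Its log2 signal was 7.49, 7.68 and 7.91 in the TFPIα arrays, 7.75, 7.61 and 7.77 in the TFPIβ arrays and 7.64, 7.54 and 7.70 in the empty vector arrays. The TFPIα arrays held both the lowest and the highest value, and all groups overlapped. The differences were 0.06 for TFPIα minus empty vector (95% confidence interval -0.21 to 0.34, limma adjusted p = 0.820) and 0.08 for TFPIβ minus empty vector (-0.19 to 0.35, adjusted p = 1.0). The TFPIβ minus TFPIα difference was 0.02 (-0.25 to 0.29, adjusted p = 0.960). Without replicate 3 of TFPIα the TFPIα minus empty vector difference was -0.05.

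**Figure D2:**
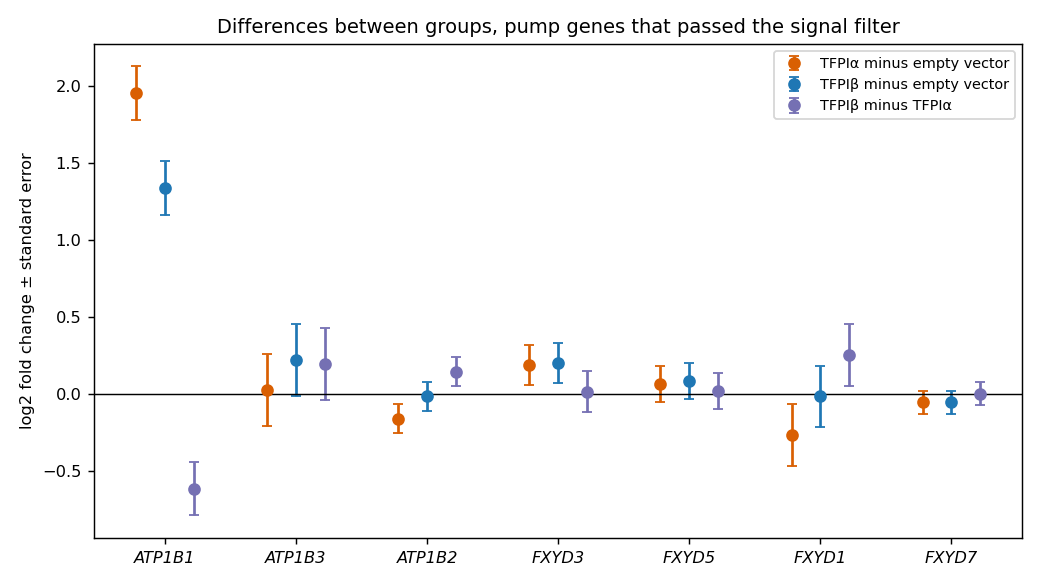
Log2 fold change (vertical axis) of the 7 pump genes that passed the signal filter, in the 3 comparisons between labelled groups. Points are differences of group means and bars are standard errors of the limma fit over 9 arrays. ATP1B1 stands at 1.95, 1.34 and -0.62, and the other genes lie between -0.27 and 0.25.

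In TFPIβ against empty vector, 3.43% of the probe sets tested were higher and 3.74% lower without overlap between the groups, and ATP1B1 was the only member among them. In TFPIβ against TFPIα these shares were 6.15% and 7.1%, and ATP1B1, which was lower in TFPIβ, was again the only member without overlap. The members' signals also did not follow that of ATP1B1 closely over the 9 arrays, with Pearson's r of 0.16 for ATP1B3, -0.49 for ATP1B2, 0.48 for FXYD3 and 0.20 for FXYD5. Between 2239 and 9663 of the 11231 genes compared had a higher r with ATP1B1 than each of these. The arrays fall into 3 groups in ATP1B1 signal, so an r over all of them is mainly a measure of likeness between group levels.

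The remaining genes of the pump were measured in part. FXYD2 and FXYD6, whose probe sets carry several symbols, were not analysed here. FXYD1, the pump regulator phospholemman, passed the filter through replicate 1 of TFPIβ alone, at 5.15, and its group means were 4.47 (TFPIα), 4.73 (TFPIβ) and 4.74 (empty vector). Its differences from empty vector were -0.27 (SE 0.20, limma adjusted p = 0.531) for TFPIα and -0.02 (SE 0.20, adjusted p = 1.0) for TFPIβ. FXYD7 lay between 5.32 and 5.51 in all 9 arrays and differed from empty vector by -0.06 in both comparisons (limma adjusted p = 0.742 and 1.0). ATP1B4 (3.72 to 4.08) and FXYD4 (3.75 to 3.84) were under the filter in every array. The related proton-potassium pump genes ATP12A, ATP4A and ATP4B were also under it, at 3.03 to 3.47, 3.93 to 4.17 and 3.49 to 3.80.

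Genes that handle the same ions or contact the pump were described by 9 lists grouped by function, which hold 184 genes apart from the pump genes, 164 of them with a probe set of their own and 102 tested. None of the 102 was called in any comparison. In TFPIα against empty vector 9 of them (8.82%) were higher and 7 (6.86%) lower at an unadjusted p under 0.05, against 8.59% and 5.58% of all probe sets tested, and 51 lay above 0 and 51 below. The higher genes include KCNMA1 and KCNK2, which passed the filter through TFPIα arrays alone. Their part in that count therefore rests on the group where they are high. In TFPIβ against empty vector 3 were higher and 6 lower at that threshold (2.94% and 5.88%, against 2.49% and 2.23% of all probe sets tested), and 32 lay above 0 and 70 below. In TFPIβ against TFPIα 3 were higher and 7 lower (2.94% and 6.86%, against 3.94% and 4.7%), and 36 lay above 0 and 66 below. The median log2 fold change of all probe sets tested was within 0.0017 of 0 in each comparison.

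**Figure D3:**
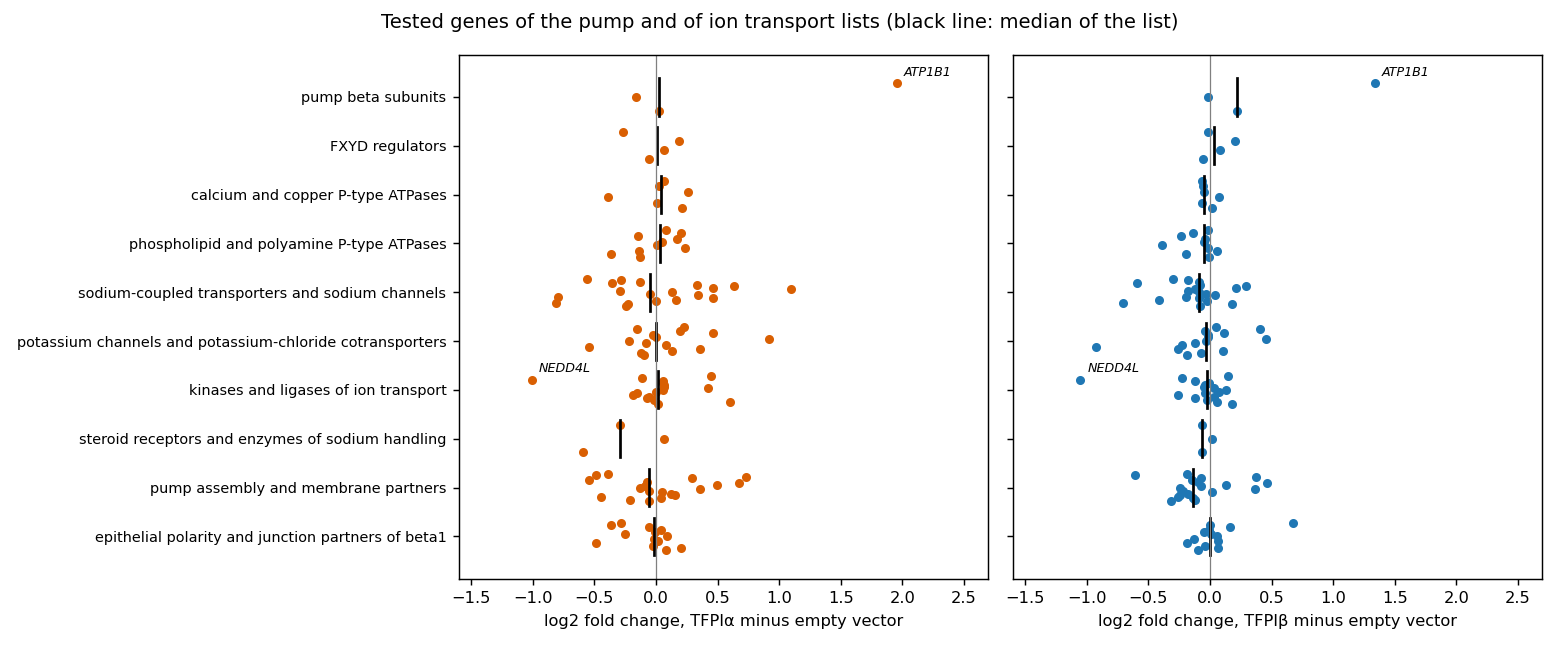
Log2 fold change (horizontal axis) of each tested gene of the pump and ion transport lists, 1 list per line, for TFPIα (left) and TFPIβ (right) against empty vector. Points are genes and black lines are list medians. ATP1B1 lies farthest to the right in both panels, and NEDD4L, at -1.01 and -1.06, farthest to the left.

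Among the sodium-coupled transporters and sodium channels, 19 were tested in TFPIα against empty vector, with a median log2 fold change of -0.05. The sodium/myo-inositol cotransporter gene SLC5A3 stood at -0.79 (SE 0.24, limma adjusted p = 0.335) and the glutamate transporter gene SLC1A1 at 0.63 (SE 0.21, adjusted p = 0.335). Of the 15 potassium channels and potassium-chloride cotransporters (median 0.00), KCNMA1, the large-conductance calcium-activated potassium channel, stood at 0.92 (SE 0.27, adjusted p = 0.335) and the background potassium channel gene KCNK2 at 0.46 (SE 0.18, adjusted p = 0.344). KCNMA1 passed the filter through replicate 2 of TFPIα alone, at 5.51, and KCNK2 through replicates 2 and 3 of TFPIα alone, so both entered the test through the group where they are high. For KCNMA1, replicates 1 and 3 of that group were at 4.32 and 4.60 and the empty vector arrays between 3.78 and 4.08. The other P-type ATPases varied less, with medians of 0.04 for the 6 calcium and copper pumps and 0.03 for the 10 phospholipid and polyamine transporters. The genes with the lowest p were ATP7A (0.21) and ATP2B1 (0.26) in the former list and ATP9A (-0.37) and ATP13A1 (0.17) in the latter, at limma adjusted p = 0.361 to 0.456.

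The kinases and ligases of ion transport held the lowest difference from empty vector of the pump and ion transport lists. NEDD4L, a ubiquitin ligase that removes the epithelial sodium channel from the membrane, gave log2 signals of 7.09, 6.45 and 7.06 in the TFPIα arrays, 7.15, 6.47 and 6.82 in the TFPIβ arrays and 8.03, 7.53 and 8.06 in the empty vector arrays. Every array labelled TFPIα or TFPIβ lay below every empty vector array, and replicate 2 was the lowest of each group. Of all probe sets tested, 8.85% were lower without overlap in TFPIα against empty vector and 3.74% in TFPIβ against empty vector. The differences were -1.01 (SE 0.24, limma adjusted p = 0.335) for TFPIα and -1.06 (SE 0.24, adjusted p = 0.801) for TFPIβ, so NEDD4L did not pass in either comparison. PRKCA, the protein kinase Cα gene, stood at 0.42 in TFPIα (SE 0.15, adjusted p = 0.335), and the median of the 17 genes tested was 0.02.

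Of the 19 genes for pump assembly and membrane partners, 4 were higher and 3 lower at the unadjusted threshold in TFPIα against empty vector, where 8.59% and 5.58% of all probe sets were, and the median was -0.06. ARRB1, the gene of β-arrestin 1, stood at 0.73 (SE 0.14, limma adjusted p = 0.289) in TFPIα and 0.38 (SE 0.14, adjusted p = 1.0) in TFPIβ. CAV1, the gene of the caveolar coat protein caveolin 1, stood at 0.67 (SE 0.15, adjusted p = 0.335) in TFPIα and 0.46 (SE 0.15, adjusted p = 1.0) in TFPIβ. ARRB1 and CAV1 were lowest in the 3 empty vector arrays, at 4.82 to 5.30 and 9.50 to 10.04. Of all probe sets tested, 14.4% were higher without overlap in TFPIα against empty vector and 3.43% in TFPIβ against empty vector. Of the 13 epithelial polarity and junction partners, none passed the unadjusted threshold, and PATJ (-0.48, adjusted p = 0.360) and DLG1 (-0.25, adjusted p = 0.370) came nearest. Of the 3 steroid receptors and enzymes of sodium handling, the glucocorticoid receptor gene NR3C1 stood at -0.29 and its target TSC22D3 at -0.59, with adjusted p = 0.456 and 0.421.

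The genes whose signal was most like that of ATP1B1 over the 9 arrays were taken by Pearson's r among 11231 named genes, without a test. The highest values were those of RP9 (0.97), CARD19 (0.95), UBXN2A (0.94), SSX2IP (0.94) and USP22 (0.94). Their differences in TFPIα against empty vector were between 0.25 and 0.58, several times smaller than that of ATP1B1. The lowest values were those of COPB1 (-0.96), NCOA7 (-0.95), CD55 (-0.95), SLFN5 (-0.95) and OGT (-0.94). SLFN5 had the widest contrast of these, at -0.94 in TFPIα and -0.86 in TFPIβ, and COPB1 the narrowest, at -0.09 and -0.08. Within groups, the deviations from the group means correlated with those of ATP1B1 at 0.88 for RP9, 0.86 for UBXN2A and -0.89 for SLFN5, and at 0.29 for SSX2IP and -0.45 for CD55. These values rest mainly on the empty vector arrays, where the SD of ATP1B1 was 0.40, against 0.06 in TFPIα and 0.03 in TFPIβ. The genes were also picked by r over the same 9 arrays, so the values are no separate support for likeness.

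**Figure D4:**
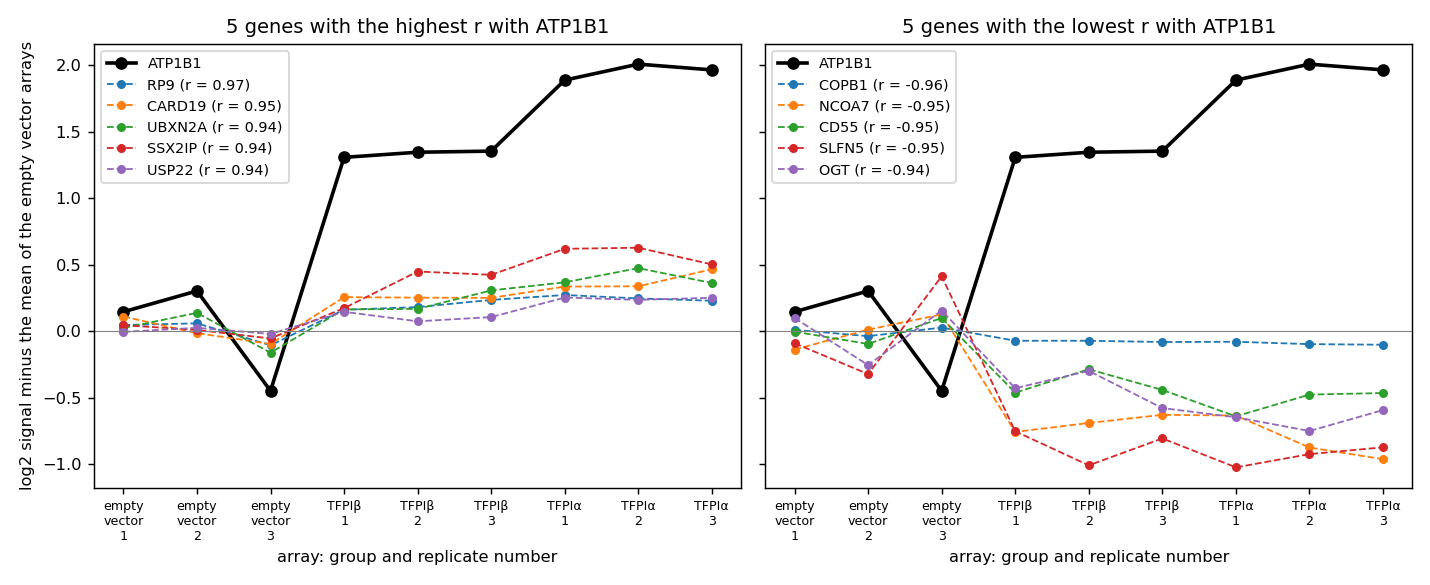
Log2 signal minus the mean of the empty vector arrays (vertical axis) of ATP1B1 and of the 5 genes with the highest (left) and lowest (right) Pearson's r with it, in the 9 arrays named by group and replicate number. The high-r genes step up after the empty vector arrays by a mean of at most 0.58 in TFPIα, against 1.95 for ATP1B1, and the low-r genes step down.

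The proliferation list was described because its level varied between arrays. All 24 genes of the list, which holds cell cycle and DNA replication genes, were above 0 in TFPIα against empty vector, with a median log2 fold change of 1.12, and 8 were higher at an unadjusted p under 0.05 (8.59% of all probe sets tested were), though none was called by limma. In TFPIβ against empty vector 13 were above 0 and 11 below (median 0.11), and in TFPIβ against TFPIα all 24 were below 0 (median -1.05). The mean signal of the list was 8.54 to 8.62 in the TFPIα arrays and 6.81 to 7.83 in the empty vector arrays. In the TFPIβ arrays it was 7.77, 6.38 and 8.64, the last above every TFPIα array, a range of 2.26 over which ATP1B1 varied by 0.05. In replicate 2 of TFPIβ, where the list was lowest of all 9 arrays, ATP1B1 was at 6.81, above every empty vector array. The list mean, like ATP1B1, was higher in every TFPIα array than in every empty vector array. Pearson's r between ATP1B1 and the list mean was 0.45 over the 9 arrays.

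**Figure D5:**
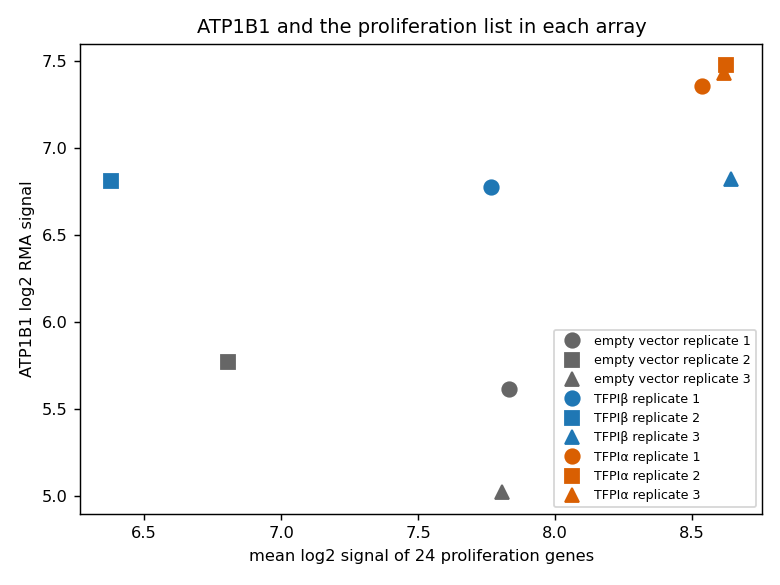
ATP1B1 log2 signal (vertical axis) against the mean log2 signal of 24 proliferation genes (horizontal axis) in each array, with colours for labelled groups and symbols for replicate numbers. The TFPIβ arrays spread from 6.38 to 8.64 along the horizontal axis at ATP1B1 signals of 6.78 to 6.82.

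Marker lists of cell types are given as their mean signal in the arrays of each group. The mean signal of the 16 fibroblast and mesenchymal genes was 5.92 to 6.40 in the TFPIα arrays, 6.01 to 6.22 in the TFPIβ arrays and 5.92 to 6.32 in the empty vector arrays, with 5 of the genes under the filter. The 11 basal epithelial genes measured had a mean of 9.09 to 9.54, 8.94 to 9.77 and 9.49 to 9.81, and the 18 luminal genes, 5 of them under the filter, had 5.63 to 5.77, 5.64 to 5.94 and 5.75 to 5.89, in the same order of groups. The leukocyte list (10 of 13 under the filter) lay between 3.89 and 4.14 in all arrays and the erythroid list (3 of 3 under it) between 3.63 and 3.88. The endothelial list (6 of 9 under it) was 4.17 to 4.19 in the TFPIα arrays, 4.08 to 4.13 in the TFPIβ arrays and 4.07 to 4.14 in the empty vector arrays. The part of these lists and of the proliferation list in the ATP1B1 values was not tested.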

How the data were processed

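The arrays were scanned and processed by the authors, who applied RMA (background correction, normalization between arrays and summary per probe set) in the Partek Genomics Suite, versions not given in the sources used here. The deposited table holds a log2 signal for each probe set in each array, where base 2 was inferred from the range of the values because no source gives it. Because RMA normalizes between arrays, a shift shared by all genes cannot be seen.

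Groups were taken from the sample labels. Gene symbols came from the platform annotation, in which 19460 of 33297 probe sets have 1 symbol, 1754 several and 12083 none. Where a gene had several probe sets the brightest was used. The filter of the methods, a highest log2 signal of at least 5, kept 17482, fewer than the methods state, for a reason not found here. All 9 arrays were fitted with limma 3.58.1 in R 4.3.3, with group as the only term, and p-values were adjusted over all probe sets tested. The one-way model of the methods was an alternative, at the same adjusted p threshold of 0.05. An exact permutation test of 3 against 3 arrays cannot go below p = 0.1 and was not used. The fit was tested on simulated data. The members and lists were chosen with earlier results of these data known. Named genes were the members, all measured pump genes, the 2 genes with the lowest unadjusted p of each list in TFPIα against empty vector, the 5 most and 5 least alike to ATP1B1, the nearest measured neighbours of each member and the label checks. Replicate numbers pair the arrays: the deviations from group means correlated at 0.14 to 0.59 in the 9 pairs with the same number, all above 0.1, and at -0.51 to 0.27 in the 18 others. The pairing comes from this check, and the labels do not say what a number shares. Some genes of the pump are not reported here. Positions and sequences came from RefSeq tables on GRCh38.p14. The number of arrays limits the precision. By the methods each group is 1 pool, so an effect of TFPI and a difference between pools cannot be told apart. Figures were drawn with matplotlib 3.10.9.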

Additional observations from a re-analysis of the deposited data

How the results depend on the processing

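The ATP1B1 differences, which chose the gene and are fixed by construction under most of the 16 alternatives, lay at 1.73 to 2.11 for TFPIα minus empty vector, 1.11 to 1.49 for TFPIβ minus empty vector and -0.65 to -0.59 for TFPIβ minus TFPIα. No other member was called under any alternative. With the replicate block the standard error went from 0.234 to 0.146 for ATP1B3 and from 0.132 to 0.107 for FXYD3. It went from 0.118 to 0.104 for FXYD5 and from 0.094 to 0.087 for ATP1B2. The intervals printed above are from the fit without the block. The single call in TFPIα against empty vector, both over all probe sets and over the pump and ion transport lists, went to 0 under the one-way model, without the filter, with centred arrays, in the fit of the compared groups only and with the replicate block. Leaving out 1 array at a time gave 0 to 4 calls over all probe sets and 0 to 1 over the lists. The replicate block raised the calls in TFPIβ against TFPIα from 0 to 1 and, beyond the lost call above, changed no other. A looser adjusted p of 0.1 and a filter at 6 left the single call in place. The cause of these changes was not tested.

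Signs turned only for differences near 0. Leaving out 1 array at a time, the TFPIα minus empty vector difference ranged from -0.19 to 0.17 for ATP1B3 and from -0.046 to 0.17 for FXYD5, the TFPIβ minus empty vector difference from -0.063 to 0.036 for ATP1B2, and the TFPIβ minus TFPIα difference from -0.015 to 0.083 for FXYD3 and from -0.085 to 0.13 for FXYD5. With centred arrays the TFPIβ minus TFPIα difference was -0.017 for FXYD3 and -0.012 for FXYD5. The filter at 6 left out ATP1B2 and FXYD3, FXYD3 missed the filter at 5 without replicate 2 of TFPIβ, and each member has 1 probe set, so choosing another was not possible. With 3 arrays per group and no detection calls used here, small differences of dim genes such as FXYD3 could not be resolved.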

Other observations

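Identical values in different arrays were frequent in the deposited table. Of all 33297 probe sets, 47.7% had the same value in 2 or more arrays, and so did 64.2% of those with a mean log2 signal under 5 and 30.1% of those tested. FXYD3 had 7 distinct values in 9 arrays and FXYD4 had 2, while ATP1B1, ATP1B2, ATP1B3 and FXYD5 had 9 each.

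The nearest measured gene to the left of ATP1B1 is DPT, the gene of the matrix protein dermatopontin, 377483 bases away. Its log2 fold change was 1.45 in TFPIα against empty vector (SE 0.35, limma adjusted p = 0.335) and 1.57 in TFPIβ (SE 0.35, adjusted p = 0.741), and it passed the filter through the TFPIα and TFPIβ arrays alone. The nearest to the right, BLZF1, 235475 bases away, stood at -0.04 and -0.23 (SE 0.10 each, limma adjusted p = 0.878 and 1.0). NME7, which overlaps the last 189 bases of ATP1B1, has no probe set with a single symbol and was not analysed here. Beside ATP1B3, GRK7 was under the filter and TFDP2 stood at 0.08 in both comparisons. Beside ATP1B2, SAT2 stood at -0.33 and -0.02 and WRAP53 at 0.55 and -0.14 in TFPIα and TFPIβ against empty vector, with limma adjusted p = 0.448, 1.0, 0.364 and 1.0. FXYD3 and FXYD5 lie within 54059 bases of chromosome 19, with LGI4, FXYD1 and FXYD7 between them. HPN-AS1, LGI4 and FAM187B were under the filter.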
